A study of Mus musculus with 16 samples.

Results

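The comparison described here sets 8 brain tumours of a mouse model of high-grade glioma against 5 samples of dorsal brain from control mice. It uses 13 of the 16 arrays of the series, chosen by the tissue that the labels name. The other 3 arrays hold ventral control tissue, which is kept out of the contrast. It serves to find genes that differ from dorsal tissue with no difference called from ventral tissue, and to estimate the spread. The tumours arose after tumour suppressor genes were knocked out with a Cre recombinase induced by tamoxifen. The labels call them independent tumour tissues and give no brain region for any of them, and the tumours were taken when the animals showed neurological symptoms. The dorsal controls are numbered as biological replicates of tissue from the matching region of control mice. The deleted genes, the genotype and treatment of the control mice, and age and sex are not given in the sources used here. Each tissue is a whole piece containing every cell type in it, so fewer cells of a type and less RNA per cell cannot be told apart in any result below.

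High-grade gliomas are brain tumours made of dividing cells that resemble glia and their progenitors, and they grow in among neurons, vessels, microglia and macrophages. Dorsal forebrain is rich in cortical glutamatergic neurons, whose transcripts serve synaptic transmission, calcium signalling and the electrical excitability of the membrane. Oligodendrocyte progenitors, which carry Pdgfra and Olig2, are among the cells from which such tumours can arise. RNA was measured on Illumina bead arrays. Every value is a log2 signal after background correction and quantile normalization, and every difference is tumour minus dorsal control on that scale with its standard error, so that 1 means 2-fold. A gene is said to pass where its adjusted p was under 0.05 in limma with Benjamini-Hochberg adjustment over 11755 genes. The p-values measure the spread between these samples.

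The median bead intensity was 125.7 to 141.7 over the arrays, and 38.8% to 45.1% of probes were detected. Across genes, which are not independent replicates, the correlation was 0.878 to 0.983 within the tumours, 0.943 to 0.991 within the dorsal controls and 0.768 to 0.838 from one group to the other. All 4 measured cortical markers (Slc17a7, Tbr1, Lamp5 and Nrgn) were detected on all 5 dorsal controls, and their mean signal on an array was 4.51 to 8.72 in the tumours, against 9.62 to 11.82 in the dorsal controls. The dorsal controls were not alike in striatal genes, however. Drd1, the dopamine receptor of striatal projection neurons, lay between 4.39 and 5.77 in the 8 tumours (median 4.80), against 5.88, 5.80, 5.93, 10.32 and 11.06 in dorsal controls 1 to 5. Controls 4 and 5 were thus far above the other 3, and Rgs9 and Pde10a, other striatal genes, had the same pattern. The difference for Drd1 was -2.89 ± 0.79, and -0.97 without these controls. Tbr1, a transcription factor of cortical neurons, was at 5.77 in dorsal control 5 and 9.31 to 9.70 in the other dorsal controls. Where a call, or a value by over 1.5 times, changed without these controls, the value without them is given. Each chip held tumours and dorsal controls, and 99.1%, 99.76% and 96.86% of the genes that passed had the same sign within chips 1, 2 and 3. These genes were chosen by the test on the same arrays, which favours such agreement, so the shares do not show that chips had no effect. Chips 1 and 3 held 1 dorsal control each.

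The tumours differed from dorsal brain in about as many rising as falling genes. Of 11755 genes, 5890 passed (50.1%), 3051 higher (26%) and 2839 lower (24.2%) in the tumours. A difference of 2-fold or more was reached by 3242 of them (27.6%): 1622 were higher (13.8%) and 1620 were lower (13.8%). All 8 tumours lay above every dorsal control for 1656 genes (14.1%) and below every dorsal control for 1588 genes (13.5%). The median difference over all genes was 0.03, or -0.01 with undetected genes set at their bound, and list medians are given with bounds in use where that changes them. With median scaling in place of quantiles it was 0.16, and 61.9% of the genes that passed were then higher in the tumours, against 51.8%. The direction of a small shift in a list therefore depends on the scaling.

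Among genes detected in every tumour whose groups did not overlap, the largest rise was that of Lgals3, galectin-3, a lectin of macrophages and reactive glia. It lay between 8.85 and 12.03 in the 8 tumours (median 10.03), against 4.57, 4.71, 4.34, 4.94 and 5.06 in dorsal controls 1 to 5 (difference 5.34 ± 0.39, adjusted p = 2.91e-08). Vim encodes vimentin, the intermediate filament found in glial progenitors and in reactive astrocytes. It lay between 10.24 and 13.17 in the 8 tumours (median 11.65), against 6.91, 6.60, 6.39, 6.49 and 6.20 in dorsal controls 1 to 5 (5.15 ± 0.38, adjusted p = 2.66e-08). Every tumour exceeded every dorsal control by a wide margin for both genes. Traf4, an adaptor of the TNF receptor-associated family, differed by 5.12 ± 0.33, and Igfbp3, which binds insulin-like growth factors, by 4.92 ± 0.35. Lyz2, a lysozyme of myeloid cells, differed by 4.86 ± 0.52, and Gpnmb, a membrane glycoprotein made by activated macrophages, by 4.78 ± 0.54 with 2.12 from a second probe. Usp18, which removes ISG15 from proteins, differed by 4.82 ± 0.44. H2ac15, a histone H2A gene, differed by 4.71 ± 0.34, and since histone genes are so alike its probe may not be specific to it. The remaining members of the 12 largest rises were Dlk1, Prc1, Cdca3 and En1, described with their families.

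Among genes detected in every dorsal control whose groups did not overlap, the largest fall was that of Scn4b. It encodes a sodium channel beta subunit abundant in striatal neurons. It lay between 4.31 and 6.13 in the 8 tumours (median 4.63), against 11.28, 10.08, 10.84, 12.41 and 13.62 in dorsal controls 1 to 5 (-6.76 ± 0.49, adjusted p = 2.41e-08), and a second probe gave -0.90. The dorsal controls were themselves spread over more than 3 units, with controls 4 and 5 at the top, and without these the difference was -5.85. Lamp5, a membrane protein of cortical neurons, lay between 4.47 and 8.82 in the 8 tumours (median 6.53), against 13.16, 13.53, 13.50, 11.24 and 11.69 in dorsal controls 1 to 5 (-6.47 ± 0.66, adjusted p = 8.01e-07). Hpca, the calcium sensor hippocalcin, differed by -6.17 ± 0.61 and Pvalb, a calcium buffer of fast-spiking interneurons, by -5.38 ± 0.75. Slc24a2, a sodium-calcium exchanger, differed by -5.27 ± 0.66 but by -0.07 on a second probe. Atp2b2, a calcium pump of the plasma membrane, differed by -5.25 ± 0.37, with -2.11 and -0.70 from other probes. No tumour reached the level of any dorsal control for these genes on the probes used, as the choice of the genes required.

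**Figure D1:**
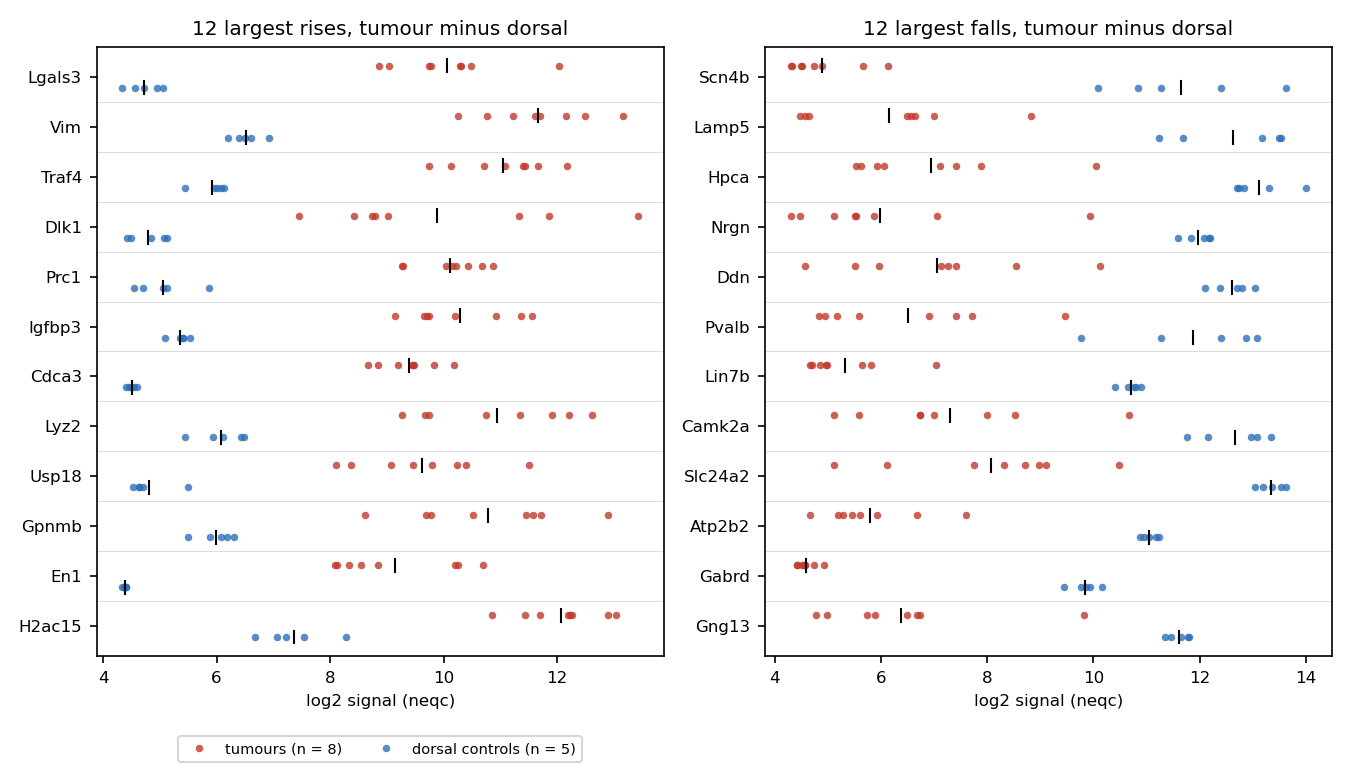
Log2 signal on each array for the 12 largest rises (left) and the 12 largest falls (right). Red points are tumours (n = 8), blue points are dorsal controls (n = 5) and the black bars are group means. No tumour overlaps a dorsal control in any of the 24 rows, because only genes without overlap were chosen.

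Some transcripts were found in 1 group only. A probe was detected on all 8 tumours, and no probe of the gene on any dorsal control, for 146 genes (1.24%), and the reverse held for 39 genes (0.332%). A fold is then a lower bound, set against the weakest detected signal of each array. Cdca3, which promotes entry into mitosis, was at least 21.9-fold higher in tumours, and En1, a homeobox gene of the midbrain and hindbrain, at least 18.4-fold. Fcgr4, an Fc receptor of myeloid cells, was at least 13.3-fold higher and Tubb6, a beta-tubulin, at least 12.8-fold. Lcn2, the iron-chelator carrier lipocalin-2, was at least 11.4-fold higher and Cxcl13, a B cell chemokine, at least 10.6-fold, with SDs over the tumours of 2.26 and 1.64. In the other direction, Gpr12, an orphan receptor of brain, was at least 8.32-fold lower, Kcnip2, a potassium channel partner, at least 5.1-fold and Npas4, an activity-induced transcription factor of neurons, at least 4.87-fold. Cyp11a1, the first enzyme of steroid synthesis, was at least 4.41-fold lower, and Cdh12, a brain cadherin, at least 4.06-fold. Without dorsal controls 4 and 5 the first set had 200 genes and the reverse set 92.

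Families were taken from 113 lists of related genes with 2819 measured members. In 27 of the 111 lists with at least 5 members most of the members were higher in the tumours, and in 19 most were lower. Over all genes 26% were higher and 24.2% lower. The lists share members and were chosen with earlier results of these data known, so the counts of lists are a description only. In 37 of these lists the mean over the members was above every dorsal control in all 8 tumours, and in 31 it was below. The plot of shares by family shows the contrast between the neuronal lists and those of division, immunity and protein synthesis.

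**Figure D2:**
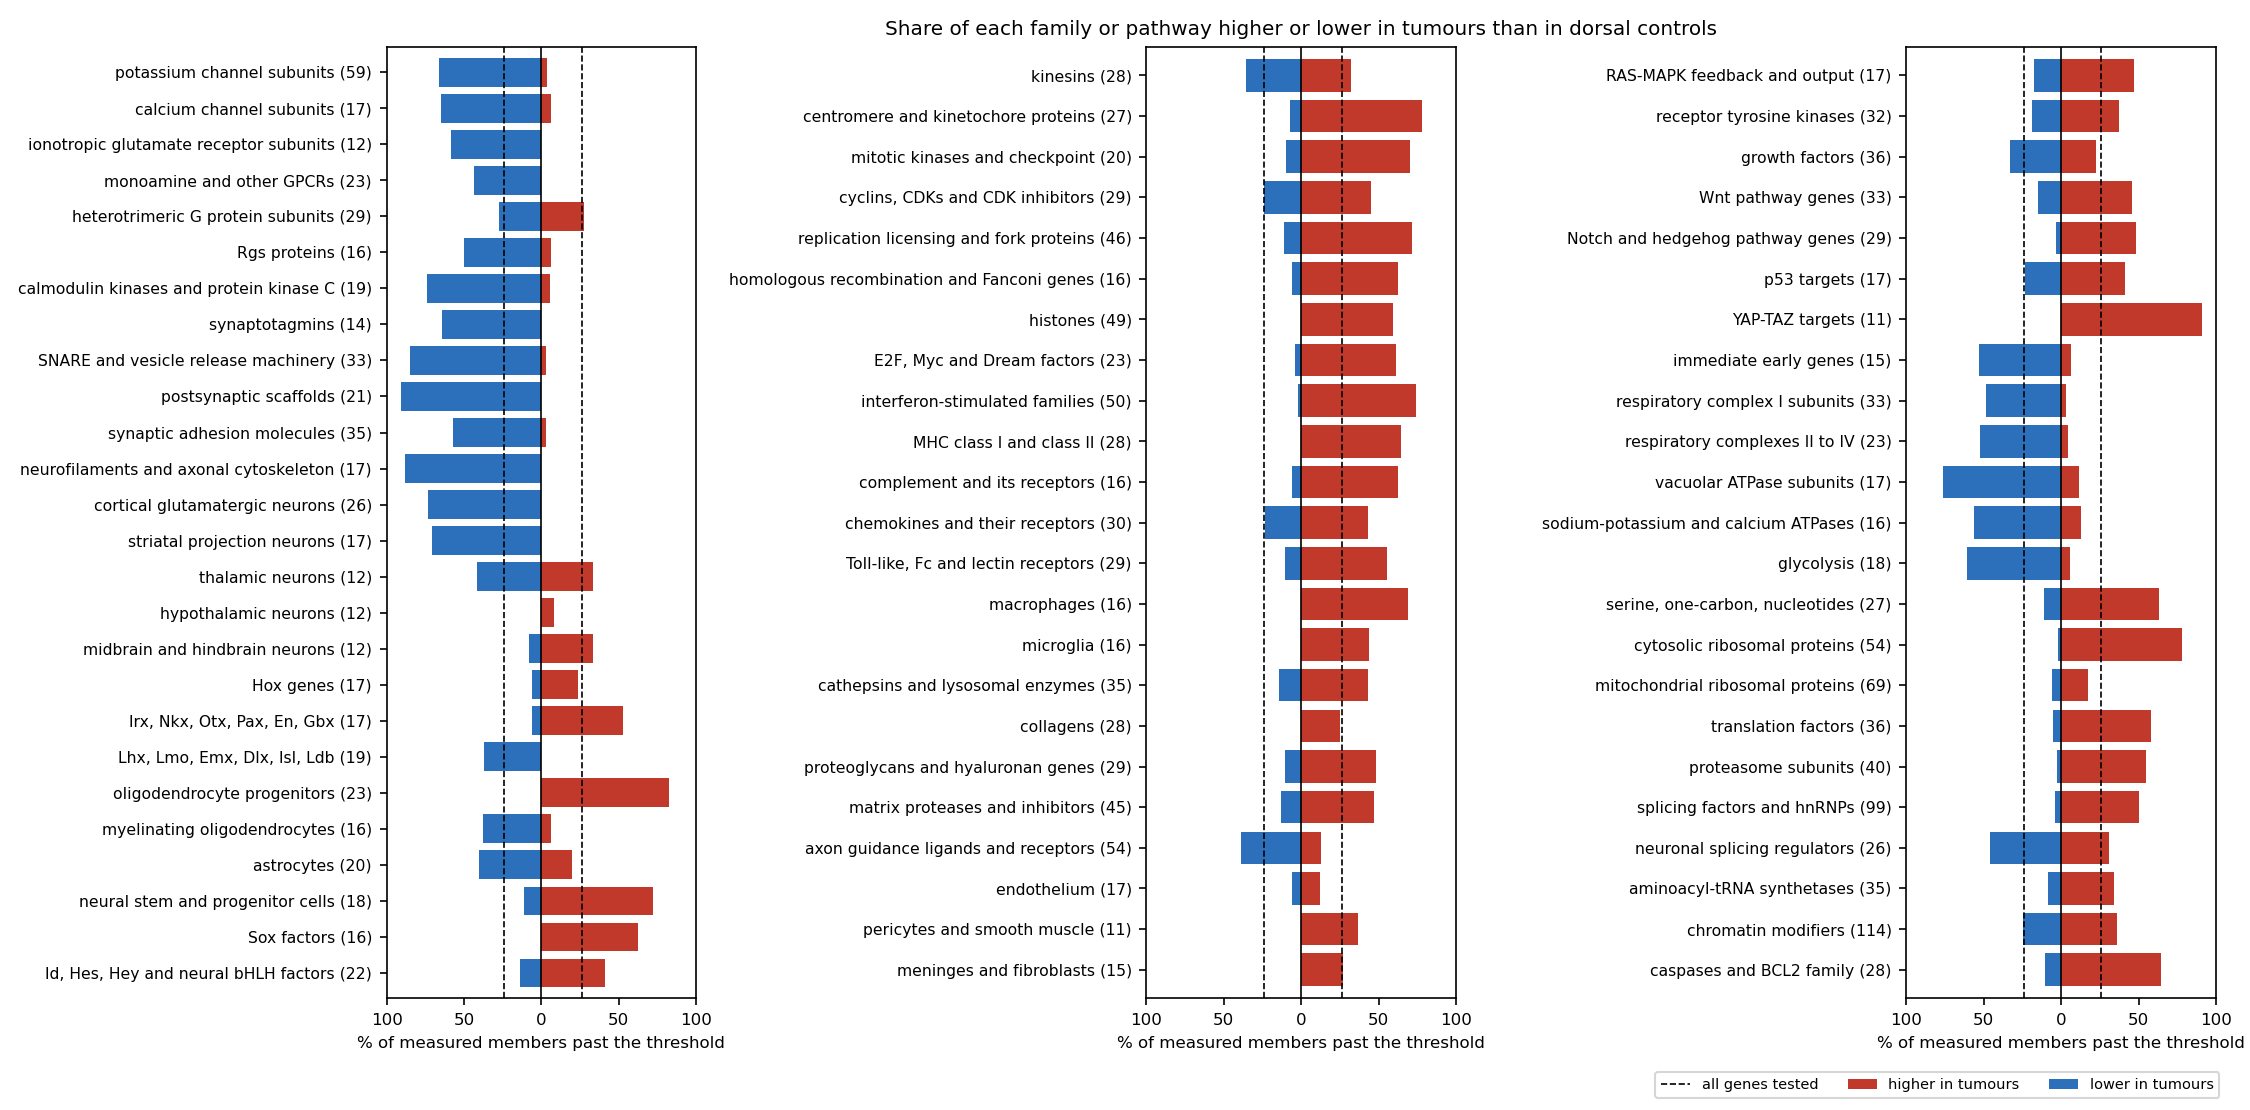
Share of the measured members of each list with at least 10 members (number in parentheses) that passed higher in the tumours (red, right of 0) or lower (blue, left of 0), relative to dorsal controls. Dashed lines mark the shares over all 11755 genes, 26% higher and 24.2% lower.

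Mitosis genes were higher in the tumours as a group. Of 20 mitotic kinases and checkpoint genes, 14 rose and 2 fell, with a median of 1.61 (1.26 with bounds in use). Pbk, a mitotic kinase, differed by 4.68 ± 0.40 and Cdca8, the chromosomal passenger borealin, by 4.21 ± 0.25. Birc5, survivin of the same passenger complex, was at least 16.2-fold higher. Bub3, a checkpoint protein, was lower (-1.04 ± 0.30). Of 27 centromere and kinetochore genes, 21 rose and 2 fell, with a median of 1.03 (0.87 with bounds in use). Cenpa, the centromeric histone, differed by 3.78 ± 0.31 and Cenpn, which binds it, by 2.24 ± 0.20. Zwint fell by 1.08 on the probe used, while another probe of it gave 1.61, so its direction is uncertain. Prc1, which bundles the microtubules of the spindle midzone, lay between 9.26 and 10.88 in the 8 tumours (median 10.18), against 4.70, 5.05, 5.13, 5.86 and 4.55 in dorsal controls 1 to 5 (5.06 ± 0.28, adjusted p = 1.8e-09). Cdc20, which turns on the ubiquitin ligase that triggers anaphase and was chosen after its value was seen, lay between 8.88 and 10.36 in the 8 tumours (median 9.87), against 5.42, 5.41, 5.25, 5.67 and 5.18 in dorsal controls 1 to 5 (4.43 ± 0.21, adjusted p = 5.33e-10). The groups did not overlap for Cdc20, nor for Prc1, which was among the largest rises chosen for no overlap.

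The upstream windows of Prc1 and Cdc20 are shown because promoters of late cell cycle genes are known for a pair of short elements, the CCAAT box and the CHR, which are bound by NF-Y and by the MuvB complex. The windows hold the 250 bases before a transcript start in RefSeq on GRCm38.p6, 5′ to 3′, with CCAAT and TTTGAA on either strand in capitals. They are chr7:80294226-80294475 on the plus strand for Prc1 and chr4:118437344-118437593 on the minus strand for Cdc20.
Prc1: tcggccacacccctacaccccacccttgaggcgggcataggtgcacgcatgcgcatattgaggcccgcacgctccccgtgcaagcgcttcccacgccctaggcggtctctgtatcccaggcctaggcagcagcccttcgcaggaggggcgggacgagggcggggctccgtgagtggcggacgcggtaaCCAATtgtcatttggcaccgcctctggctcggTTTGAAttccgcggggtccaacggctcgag
Cdc20: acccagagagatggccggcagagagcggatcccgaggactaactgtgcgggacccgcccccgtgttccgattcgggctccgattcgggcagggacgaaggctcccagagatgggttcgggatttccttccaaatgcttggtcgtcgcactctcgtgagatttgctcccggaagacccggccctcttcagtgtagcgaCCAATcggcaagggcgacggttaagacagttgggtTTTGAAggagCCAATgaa
The window of a second Prc1 start, chr7:80294201-80294450, holds no TTTGAA. In both windows shown a CCAAT box lies upstream of TTTGAA, and the Cdc20 window holds another CCAAT box after it. Of 52 windows found for 47 of the 53 mitotic genes that rose, 65.4% held CCAAT, against 33.8% of all 32851 windows, and 23.1% held TTTGAA, against 16%. These shares are a description of letters, with no test, and say nothing of binding.

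Replication genes rose too. Of 46 licensing and fork genes, 33 rose and 5 fell, with a median of 1.14 (1.02 with bounds in use). Mcm6, a subunit of the replicative helicase, was at least 8.35-fold higher, Mcm2 differed by 2.95 ± 0.45 and Tyms, thymidylate synthase, by 3.09 ± 0.46. Dut, which clears dUTP, was lower (-1.15 ± 0.21). The letters TTTCCCGC or TTTGGCGC of E2F elements, on either strand, were in 15.6% of 32 windows of 27 of the 33 replication genes that rose and in 1.3% of all windows. Of 16 genes of homologous recombination and the Fanconi pathway, 10 rose, with Rad54l at least 4.18-fold and Rad54b, a related translocase, by 1.92 ± 0.17, and 1, Xrcc3, was lower (-0.72 ± 0.25), a call lost without dorsal control 4 or 5, with -0.21 when both were left out. Of 49 histone genes, 29 rose and 0 fell, with a median of 1.22 (1.14 with bounds in use) and the H2A genes H2ac12 (4.69 ± 0.35) and H2ac11 (4.20 ± 0.37) next to H2ac15. Probes of these genes may share targets. Of 23 factors of the E2F, Myc and DREAM families, 14 rose. Uhrf1, which maintains DNA methylation at replication, differed by 3.74 ± 0.45 and Mycl by 3.31 ± 0.27, while E2f1 was lower (-0.89 ± 0.35), a call lost without any 1 of the dorsal controls or without tumour 2, 7, 8, 9 or 10.

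Among cyclins, their kinases and inhibitors, more rose than fell. Of 29, 13 rose (44.8%, against 26% over all genes) and 7 fell (24.1%, near the 24.2% over all genes). Ccnd1, cyclin D1, differed by 3.98 ± 0.45 and Cdk2 by 3.89 ± 0.23, with 1.43 to 2.81 from other probes of Cdk2. Cdk5, the cyclin-dependent kinase of neurons, fell by 1.93. Cdkn2a, which encodes p16 and p19ARF, lay between 8.09 and 9.83 in the 8 tumours (median 8.51), against 4.46, 4.34, 4.41, 4.39 and 4.30 in dorsal controls 1 to 5. It was undetected on every dorsal control and at least 13.8-fold higher in the tumours. Rb1 differed by 0.90 ± 0.23 (adjusted p = 0.00424) and exceeded every dorsal control in 7 of 8 tumours. Nf1, a brake on RAS, differed by -0.39 ± 0.16 without passing (adjusted p = 0.0511), near background. It passed as lower with the chip as a block (-0.48) and with the mean over probes (-0.39). Trp53 was not among the genes tested. Of 17 p53 targets, 7 rose (41.2%) and 4 fell (23.5%, near the 24.2% over all genes). Among the rises were Gtse1 (at least 6.72-fold, with 1.1 from a second probe) and Fas (1.60 ± 0.42, with 0.6 from a second probe). The falls were led by Ptprv (-2.08 ± 0.34, or -1.38 without dorsal controls 4 and 5).

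Members of the kinesin family went both ways. Kinesins are motors that walk along microtubules, some in the spindle and some carrying cargo along axons. Of 28 measured, 9 were higher (32.1%) and 10 lower (35.7%) in the tumours, with a median of -0.12. Over all genes the shares were 26% and 24.2%. Kif2c, which depolymerizes spindle microtubules, was at least 8.5-fold higher, Kif18b at least 5.94-fold, and Kif4, a chromosome motor, differed by 2.45 ± 0.21. Other probes gave 0.53 and 2.35 for Kif18b, and 1.57 and 1.78 for Kif4. Kif5a, a heavy chain of axonal transport, lay between 5.65 and 10.38 in the 8 tumours (median 8.11), against 13.14, 12.94, 13, 13.19 and 12.22 in dorsal controls 1 to 5 (-5.04 ± 0.57, adjusted p = 2.49e-06). Kifc2, another motor, differed by -4.30 ± 0.30 (-1.78 on a second probe), and Kif5c, a second axonal heavy chain, by -3.14 ± 0.35. With median scaling 9 kinesins were higher and 8 lower.

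The family of heterotrimeric G protein subunits, which relay signals from receptors, also held members on both sides. Of 29 genes, among them the antisense transcript Gnasas1, which did not pass, 8 rose and 8 fell, with a median of 0.09 (0.08 with bounds in use). These shares, 27.6% each, are near the 26% higher and 24.2% lower over all genes. Gng12 (2.39 ± 0.21), Gna13 (1.59 ± 0.25) and Gnai2 (1.35 ± 0.15) were the largest rises. Gng13, a gamma subunit of neurons, lay between 4.77 and 9.82 in the 8 tumours (median 6.19), against 11.65, 11.79, 11.45, 11.79 and 11.35 in dorsal controls 1 to 5 (-5.22 ± 0.60, adjusted p = 2.82e-06). The highest tumour stayed below the lowest dorsal control, a condition of its place among the largest falls. The alpha subunits Gnao1 (-2.45 ± 0.25) and Gnal (-1.81 ± 0.39), the forms that predominate in neurons and striatum, were also lower on the probes used. For Gnal the difference was -0.93 without dorsal controls 4 and 5, and 0.02 on a second probe. Gnal was chosen after its value was seen. Of 16 Rgs proteins, which end G protein signals, 8 fell, led by Rgs4 (-4.40 ± 0.47), and only Rgs1, a leukocyte form, rose (at least 2.76-fold), while without dorsal controls 4 and 5 3 rose.

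**Figure D3:**
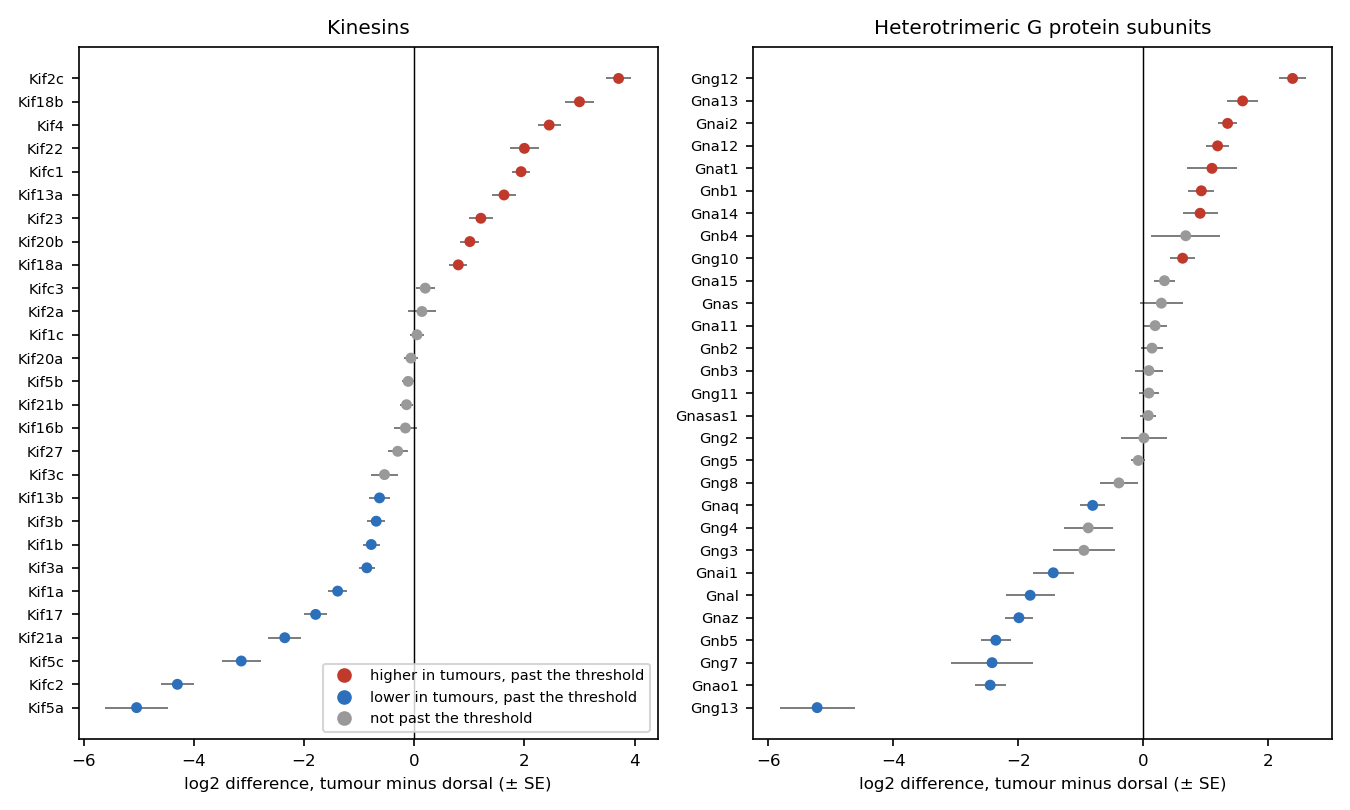
Difference in log2 signal, tumour minus dorsal control, with its standard error, for each measured kinesin (left) and G protein subunit (right). Red points passed higher in the tumours, blue points passed lower and grey points did not pass, and both families hold members on each side of 0.

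Most general splicing factors and translation factors that passed were higher, while splicing regulators studied in neurons went both ways. Of 99 general splicing factors and hnRNPs, 50 rose and 4 fell, with a median of 0.56. Ptbp1, which represses neuronal exons, lay between 10.79 and 11.81 in the 8 tumours (median 11.15), against 8.43, 8.60, 8.32, 8.43 and 8.70 in dorsal controls 1 to 5 (2.71 ± 0.17), and 7 of its 9 other probes gave 2.23 to 2.83. Of 26 splicing regulators studied in neurons, 12 fell, among them Rbfox3 (-4.57 ± 0.45), Rbfox1 (-4.25 ± 0.38, with -0.68 from a second probe) and Celf4 (-3.19 ± 0.30), while 8 rose, led by Qk (2.81 ± 0.37), a regulator of glial RNA. Of 36 translation factors, 21 rose and 2 fell. The helicase Eif4a2 fell by 1.02, with 0.17 and -1.86 from other probes, while its relative Eif4a3 differed by 1.25 ± 0.19. Of 54 cytosolic ribosomal protein genes, 42 rose and 1 fell, with a median of 0.92. Rps27l (2.33 ± 0.13), Rpl7a (2.22 ± 0.21) and Rplp0 (2.00 ± 0.15) led. The list mean was 0.68 to 1.01 above the dorsal mean in the tumours, against -0.17 to 0.23 in the dorsal controls. Ribosomal protein probes can bind transcripts of pseudogenes. The 69 mitochondrial ribosomal protein genes had a median of 0.10, with 12 higher (17.4%) and 4 lower (5.8%). These shares were under the 26% and 24.2% over all genes.

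Most channel genes of the neuronal membrane were lower in the tumours. Of 59 potassium channel subunits, 39 fell and 2 rose, with a median of -0.91 (-0.82 with bounds in use). Kcnab1 (-4.49 ± 0.52), Kcnh3 (-4.48 ± 0.26) and Kcnab2 (-3.80 ± 0.31) fell most, and Kcne4 was higher (0.83 ± 0.32), a call lost without any 1 of the dorsal controls or without tumour 2, 7 or 10. Of 9 sodium channel subunits, 6 fell and 0 rose, among them Scn2b (-4.64 ± 0.42) and Scn2a (-3.35 ± 0.22). Of 17 calcium channel subunits, 11 fell, among them Cacng3 (-4.04 ± 0.17), which traffics AMPA receptors, and Cacna2d3 (-3.85 ± 0.30), and 1, Cacng4, was higher (1.63 ± 0.59). Cacng4, which oligodendrocyte progenitors also express, lost its call without dorsal control 1, 2 or 3 or tumour 3, 9 or 10 and was lower within chip 3, and its difference was 2.63 without dorsal controls 4 and 5.

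Most glutamate and GABA-A receptor subunits were lower too. Of 12 ionotropic glutamate receptor subunits, 7 fell and 0 rose, with Grin2b (-3.38 ± 0.29) and Gria1 (-3.06 ± 0.64) most. All 3 measured metabotropic receptors fell, with Grm7 at -3.5 ± 0.24 and at -0.60 and -1.51 on other probes. Of 8 GABA-A receptor subunits, 5 fell, among them Gabrb1 (-2.36 ± 0.51). Gabrd, the delta subunit of extrasynaptic receptors, lay between 4.42 and 4.93 in the 8 tumours (median 4.56), against 9.94, 9.45, 9.86, 9.77 and 10.16 in dorsal controls 1 to 5 (-5.24 ± 0.13, adjusted p = 2.02e-13). Its tumour values sat close to background with an SD of 0.17, and its probe was detected on 1 of 8 tumours. The pooled SD relative to the difference was smaller for Gabrd than for any other gene that passed. It was followed by Cited4, a transcriptional co-activator (-2.63 ± 0.12), Cacng3, Gpr12, Cacng2 (at least 4.36-fold lower) and Tmem63c (-1.91 ± 0.11), whose probes were each detected on 2 or fewer of the 8 tumours, so that their small tumour SDs are those of signal near background. Of 23 receptors for monoamines, acetylcholine, opioids and cannabinoids, 10 fell, led by the histamine receptor Hrh3 (-3.52 ± 0.30). Of 10 nicotinic and glycine receptor subunits, 4 fell and 1 rose, with a median of -0.08 (0.01 with bounds in use).

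Most genes of release and reception at the synapse were lower. Of 33 genes of SNAREs and vesicle release, 28 fell and 1 rose, with a median of -2.35. Sv2b, a vesicle glycoprotein, differed by -4.54 ± 0.70 (-1.41 on another probe), Rph3a, an effector of Rab3, by -4.44 ± 0.34 and Stx1a, the syntaxin of the fusion complex, by -4.01 ± 0.43. The member that rose, Syngr1, did so by 1.24 on the probe used while other probes gave -3.14, -3.04 and 2.25, so its direction is uncertain, and without dorsal controls 4 and 5 it did not pass (1.09). Of 21 postsynaptic scaffold genes, 19 fell and 0 rose. Lin7b lay between 4.66 and 7.04 in the 8 tumours (median 4.97), against 10.76, 10.79, 10.90, 10.64 and 10.41 in dorsal controls 1 to 5 (-5.37 ± 0.32, adjusted p = 3.39e-09), and its 3 other probes gave -2.67 to -4.45. Dlg2, PSD-93, differed by -4.10 ± 0.33. Of 14 synaptotagmins, the calcium sensors of release, 9 fell, led by Syt1 (-3.77 ± 0.37), and of 17 genes of neurofilaments and the axonal cytoskeleton 15 fell, led by Stmn2 (-3.68 ± 0.69). Of 19 calmodulin-dependent and C kinases, 14 fell, with Camk2a at -5.37 ± 0.70 and Camk4 at -4.89 ± 0.45, and Prkcd was higher (1.55 ± 0.30). Of 35 synaptic adhesion genes, 20 fell, led by Cntnap2 (-3.99 ± 0.32).

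Some genes passed against dorsal tissue and not against ventral tissue. By this rule 80 genes were higher (0.681%) and 185 lower (1.57%): each differed at least 2-fold from dorsal tissue, did not pass against ventral tissue, and differed between the control regions. The higher set had 31 genes without background correction and 157 with array weights. The tumours' region is not given, so the region of the tissue and the tumour state cannot be told apart for these genes. Their median differences from dorsal and from ventral tissue were 1.43 and 0.05 for the higher set and -1.85 and -0.11 for the lower set. The rule that chose the genes favours such medians. With only 3 ventral arrays, not passing does not show that a gene equals ventral tissue. The comparisons share the tumour arrays. Of 26 cortical glutamatergic genes, 19 fell against dorsal tissue, with a median of -2.84, and 11 of them met the dorsal-only rule. So did 7 of 21 postsynaptic scaffold genes, 8 of 54 axon guidance genes and 5 of 15 immediate early genes.

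The lower set was led by Nrgn, neurogranin, which binds calmodulin in dendrites. It lay between 4.30 and 9.94 in the 8 tumours (median 5.52), against 12.09, 12.20, 12.17, 11.59 and 11.84 in dorsal controls 1 to 5 (-6.00 ± 0.70, adjusted p = 3.01e-06). Against ventral tissue it differed by -1.84 ± 0.83, and ventral from dorsal tissue by -4.16 ± 0.89. Gabrd differed from ventral tissue by 0.05 ± 0.15, and ventral from dorsal tissue by -5.30 ± 0.17, and the tumour values overlapped the ventral ones. Slc17a7, the vesicular glutamate transporter of cortical neurons, lay between 4.50 and 10.20 in the 8 tumours (median 5.52), against 11.46, 12.02, 11.69, 11.87 and 9.19 in dorsal controls 1 to 5 (-5.01 ± 0.87, adjusted p = 0.000162). Tumour 2 at 10.20 lay above dorsal control 5 at 9.19. Against ventral tissue Slc17a7 differed by 1.08 ± 1.03, and without dorsal controls 4 and 5 the difference from dorsal tissue was -5.48. Ddn, the postsynaptic protein dendrin, differed by -5.55 ± 0.68 from dorsal and -1.0 ± 0.81 from ventral tissue. Arc, an activity-induced regulator of AMPA receptors, differed by -5.07 ± 0.43 from dorsal and -0.32 ± 0.52 from ventral tissue. Itpka, a kinase of dendritic spines, differed by -4.97 ± 0.43 and -0.43 ± 0.51 in the same order, Rasgrp1, a RAS activator, by -4.58 ± 0.47 and -1.33 ± 0.55, and Arpp21, a regulated phosphoprotein, by -4.51 ± 0.58 and -0.32 ± 0.69.

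The higher set was led by Dlk1, an imprinted ligand related to those of Notch. It lay between 7.44 and 13.42 in the 8 tumours (median 8.90), against 4.49, 4.85, 4.43, 5.07 and 5.12 in dorsal controls 1 to 5 (5.09 ± 0.79, adjusted p = 5.84e-05), while the 3 ventral controls had 10.52, 10.34 and 10.53. Every tumour was above every dorsal control, as its place among the largest rises required. Of the 8 tumours, 5 were below all 3 ventral controls. Sparc, a matricellular protein of glia and vessels, differed by 2.77 ± 0.29 from dorsal and -0.59 ± 0.34 from ventral tissue. Slc29a4, a monoamine transporter, differed by 3.44 ± 0.27 and 0.29 ± 0.32 in the same order, with 0.75 from dorsal tissue on a second probe. Slc7a3, a carrier of cationic amino acids, differed by 3.16 ± 0.40 and 0.14 ± 0.48, Apoc1, an apolipoprotein, by 3.00 ± 0.50 and -0.22 ± 0.59, and Irx3, a homeobox gene, by 2.88 ± 0.40 and 0.12 ± 0.48. C1ql2, a synaptic organizer of the C1q family, differed by 2.87 ± 0.55 and -0.52 ± 0.65, and Aard by 2.98 ± 0.38 and 0.72 ± 0.45.

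**Figure D4:**
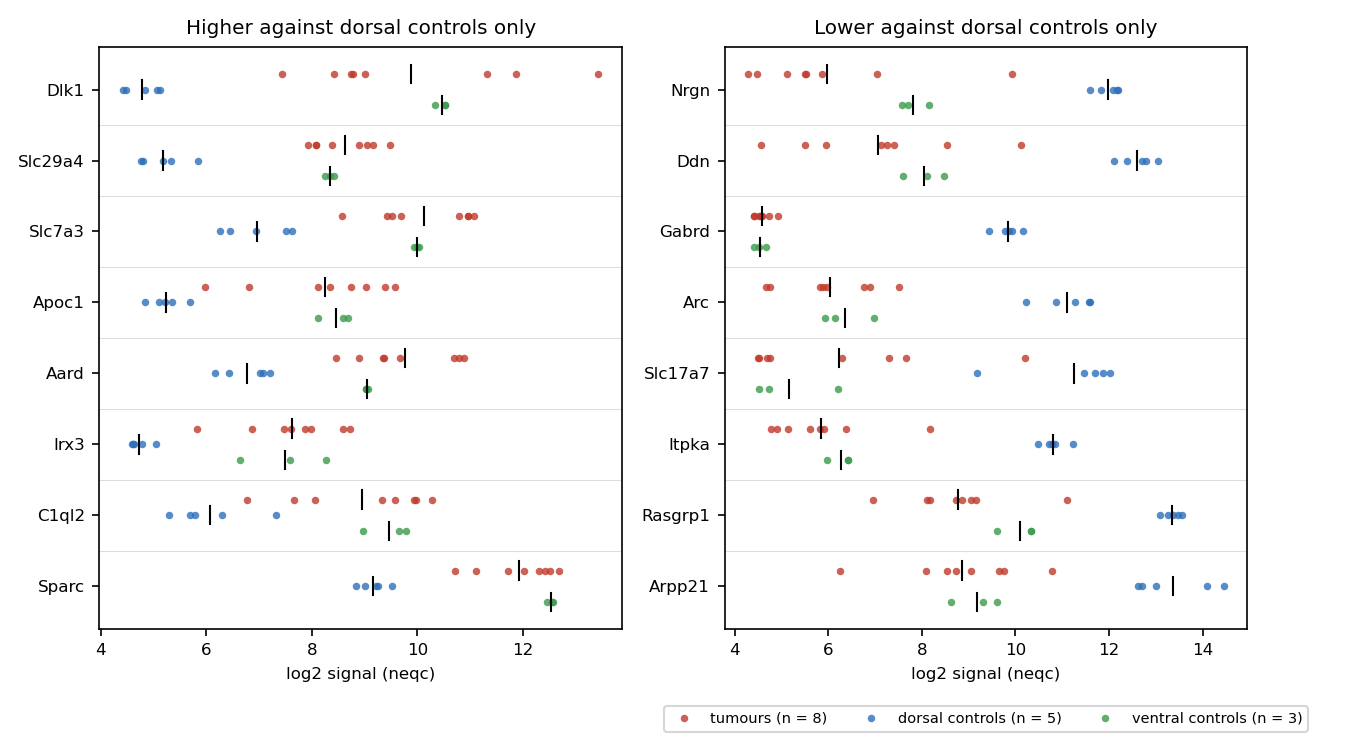
Log2 signal on each array for the 8 largest rises (left) and falls (right) that passed against dorsal but not ventral controls. Red points are tumours (n = 8), blue points dorsal controls (n = 5) and green points ventral controls (n = 3), with black bars at group means, and the position of the ventral points is fixed by the choice of these genes.

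Genes that pattern the brain from front to back differed by family. Of 17 genes of the Irx, Nkx, Otx, Pax, En and Gbx families, 9 rose and 1 fell, with a median of 0.63 (0.19 with bounds in use). En1 lay between 8.08 and 10.70 in the 8 tumours (median 8.70), against 4.40, 4.39, 4.40, 4.37 and 4.34 in dorsal controls 1 to 5, with 1.91 as the difference on a second probe. Its dorsal values were all undetected, and no tumour came near them. Irx2 was at least 12.1-fold higher and En2, the second engrailed gene, differed by 3.20 ± 0.23, while Nkx6-2 was lower (-1.43 ± 0.54), a call lost without dorsal control 1, 4 or 5 or tumour 3, 5, 8, 9 or 10. Of 17 Hox genes, which mark hindbrain and spinal cord, 4 rose (23.5%, near the 26% over all genes). Their median was 0.82 (0.27 with bounds in use). Hoxa7 was at least 12.3-fold higher, Hoxa5 at least 10.3-fold and Hoxa2 at least 3.32-fold, and Hoxd11 was lower (-0.29 ± 0.10), a call lost without dorsal control 2, 4 or 5. Of 19 forebrain genes of the Lhx, Lmo, Emx, Dlx, Isl and Ldb families, 7 fell and 0 rose, led by Dlx1 (-2.63 ± 0.54, with 0.09 within chip 3) and Lmo3 (-2.35 ± 0.40). Of 17 striatal genes, 12 fell, among them Rasd2 (-4.82 ± 0.56) and Ppp1r1b, DARPP-32 (-4.07 ± 0.76, or -2.6 without these controls), and when dorsal controls 4 and 5 were left out, 9 fell and 2 rose. The list median was -2.42, or -0.97 without these controls. Of 12 thalamic genes, 4 rose and 5 fell. Gbx2 (1.74 ± 0.57, a call lost without dorsal control 1 or 3) and Tcf7l2 (1.63 ± 0.32, with 0.41 from a second probe) were higher. Slc17a6 (-3.00 ± 0.73, but 0.59 within chip 3) and Tnnt1 (-2.19 ± 0.46) were lower.

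Genes of glial progenitors rose. Of 23 oligodendrocyte progenitor genes, 19 rose and 0 fell, with a median of 2.17. The list mean stood 0.91 to 3.21 above the dorsal mean in the tumours, against -0.20 to 0.31 in the dorsal controls, so the tumours differed widely among themselves. Olig2, the lineage transcription factor, lay between 6.32 and 9.68 in the 8 tumours (median 8.06), against 4.72, 4.68, 5.18, 5.12 and 4.61 in dorsal controls 1 to 5 (3.28 ± 0.42, adjusted p = 9.35e-06), and Lhfpl3 differed by 3.98 ± 0.47. Pdgfra, the receptor of the platelet-derived growth factors, differed by 3.27 ± 0.57 on the probe used and by -0.08 on a second. Of 16 Sox factors, 10 rose and 0 fell, with Sox4 at 3.85 ± 0.25 (0.49 on a second probe), Sox11 at 3.22 ± 0.37 and Sox10 at 2.79 ± 0.64. Of 18 neural stem cell genes, 13 rose, Nes by 3.5 ± 0.47, and 2 fell. Of 22 Id, Hes and neural bHLH genes, 9 rose, with Olig1 at 2.36 ± 0.23, and 3 fell, led by the neuronal factor Neurod2 (-3.62 ± 0.50). Of 29 Notch and hedgehog genes, 14 rose, among them the co-activator Maml2 (2.73 ± 0.23, with 0.71 from a second probe) and the receptor Notch1 (2.12 ± 0.21), and 1, Rfng, was lower (-0.60 ± 0.23), a call lost without any 1 of dorsal controls 2 to 5 or without tumour 2, 5, 6, 8 or 9.

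Mature glia moved in part. Of 20 astrocyte genes, 4 rose and 8 fell. Gfap, the astrocyte intermediate filament, lay between 8.07 and 12.91 in the 8 tumours (median 9.98), against 7.77, 8.55, 8.07, 8.30 and 6.71 in dorsal controls 1 to 5 (2.40 ± 0.68, adjusted p = 0.00774), and 6 of 8 tumours exceeded every dorsal control. Ntsr2, a neurotensin receptor, differed by -2.57 ± 0.29 and Gja1, connexin 43, by -2.02 ± 0.62. Of 16 myelin genes, 6 fell and 1, Gsn, rose (1.37 ± 0.30, with 0.07 from a second probe). Mbp, myelin basic protein, lay between 7.33 and 14.02 in the 8 tumours (median 10.43), against 13.51, 13.07, 13.35, 14.43 and 14.16 in dorsal controls 1 to 5 (-2.96 ± 0.88, adjusted p = 0.0103), so 6 tumours were below every dorsal control and the others within their range. Without dorsal controls 4 and 5, 1 myelin gene fell and 1 rose, and among astrocyte genes 6 fell and 1 rose. Gfap (2.15) and Mbp (-2.56) did not pass then.

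Interferon-stimulated genes were higher in the tumours as a group. Of 50 members, 37 rose and 1 fell, with a median of 1.55 (1.36 with bounds in use). Usp18 lay between 8.11 and 11.50 in the 8 tumours (median 9.64), against 4.70, 5.50, 4.53, 4.64 and 4.64 in dorsal controls 1 to 5 (adjusted p = 2.67e-07). Oasl2, of the oligoadenylate synthetase family, differed by 3.99 ± 0.33, with 0.54 and 1.47 from other probes, and Gbp3, a guanylate-binding protein, by 3.64 ± 0.28. Parp6, in the list by its family name, was lower (-1.83 ± 0.24). Isg15, a ubiquitin-like modifier, differed by 3.36 ± 0.38, and Ifit3, which binds viral RNA complexes, by 2.68 ± 0.37, both chosen after their values were seen. Their upstream windows are shown because type I interferon acts through the ISRE, a repeat of GAAA written here as GAAANNGAAA. The windows are chr4:156200819-156201068 on the minus strand for Isg15 and chr19:34583279-34583528 on the plus strand for Ifit3, from RefSeq on GRCm38.p6, 5′ to 3′, with the motif on either strand in capitals.
Isg15: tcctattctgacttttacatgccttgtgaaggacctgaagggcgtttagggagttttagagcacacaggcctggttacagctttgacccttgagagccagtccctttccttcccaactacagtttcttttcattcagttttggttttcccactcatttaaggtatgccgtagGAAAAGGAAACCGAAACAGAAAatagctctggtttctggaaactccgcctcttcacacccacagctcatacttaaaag
Ifit3: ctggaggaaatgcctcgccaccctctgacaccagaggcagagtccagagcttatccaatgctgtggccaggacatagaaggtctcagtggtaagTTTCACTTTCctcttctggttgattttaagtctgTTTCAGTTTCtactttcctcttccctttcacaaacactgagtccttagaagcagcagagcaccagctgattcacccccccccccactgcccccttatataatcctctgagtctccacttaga
The Isg15 window holds 3 overlapping matches and the Ifit3 window 2 separate ones on the other strand. No share is given for the whole list, since windows were found for 29 of the 37 genes that rose (78.4%), under the minimum of 80% set for such a count.

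Antigen presentation and innate immune genes rose as well. Of 28 MHC genes, 18 rose and 0 fell, with a median of 1.57 (1.37 with bounds in use). H2-D1, a class I heavy chain whose probe may bind related transcripts, differed by 3.41 ± 0.34, H2-Ab1, a class II chain, by 3.38 ± 0.70 and Cd74, the invariant chain, by 2.94 ± 0.89, or by 2.75 without passing when dorsal controls 4 and 5 were left out. Of 40 proteasome genes, 22 rose and 1 fell. The immunoproteasome subunits Psmb8 (3.41 ± 0.31) and Psmb9 (1.86 ± 0.46) and the activator Psme2 (1.61 ± 0.12) led, above the median of 0.45. Of 16 complement genes, 10 rose, among them C4a (3.94 ± 0.69), C4b (3.71 ± 0.64) and Masp1 (2.60 ± 0.38, with 0.02 from a second probe), and 1, Masp2, was lower (-1.0 ± 0.30, or -0.8 without passing without dorsal controls 4 and 5). C4a and C4b are near-identical copies whose probes may not separate them. Of 30 chemokine genes, 13 rose (43.3%, against 26% over all genes) and 7 fell (23.3%, near the 24.2% over all genes). Cxcl16 was at least 7.61-fold higher and Cxcl10, induced by interferon, at least 6.7-fold, while Ccl27a, another chemokine, was lower (-4.01 ± 0.34). Of 29 Toll-like, Fc and lectin receptors, 16 rose and 3 fell, with Tlr2 at 3.16 ± 0.37.

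Macrophage genes rose in 11 of 16 cases and 0 fell, with a median of 1.48 (1.27 with bounds in use). The list mean stood 0.94 to 3.55 above the dorsal mean in the tumours, highest in tumour 2, against -0.08 to 0.08 in the dorsal controls. Of 16 microglia genes, 7 rose and 0 fell, led by C1qa (2.33 ± 0.47), C1qc (2.20 ± 0.46) and C1qb (2.13 ± 0.43). The difference of the microglia mean from the dorsal mean was -1.06 in tumour 9 and 1.80 in tumour 6. Of other cell types the sample could hold, 2 of 17 endothelial genes rose (11.8%) and 1 fell (5.88%). Of 9 choroid plexus genes, 1 rose and 1 fell (11.1% each). These shares were under the 26% and 24.2% over all genes. Of 11 pericyte genes, 4 rose (36.4%) and 0 fell, with a median of -0.04. The pericyte rises were led by Cspg4, which is also in the oligodendrocyte progenitor list, and 0 of 3 pericyte markers checked passed. Of 15 meningeal and fibroblast genes, 4 rose (26.7%, near the 26% over all genes), led by Igfbp2 (4.00 ± 0.58). The T cell marker Cd3e was detected on 0 dorsal controls, with values of 4.35 to 5.82 in the tumours and 4.57 to 4.71 in the dorsal controls. Of 7 blood genes, 3 fell, all of them globins, and 1 without dorsal controls 4 and 5. How much these cells contributed to other results was not tested.

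**Figure D5:**
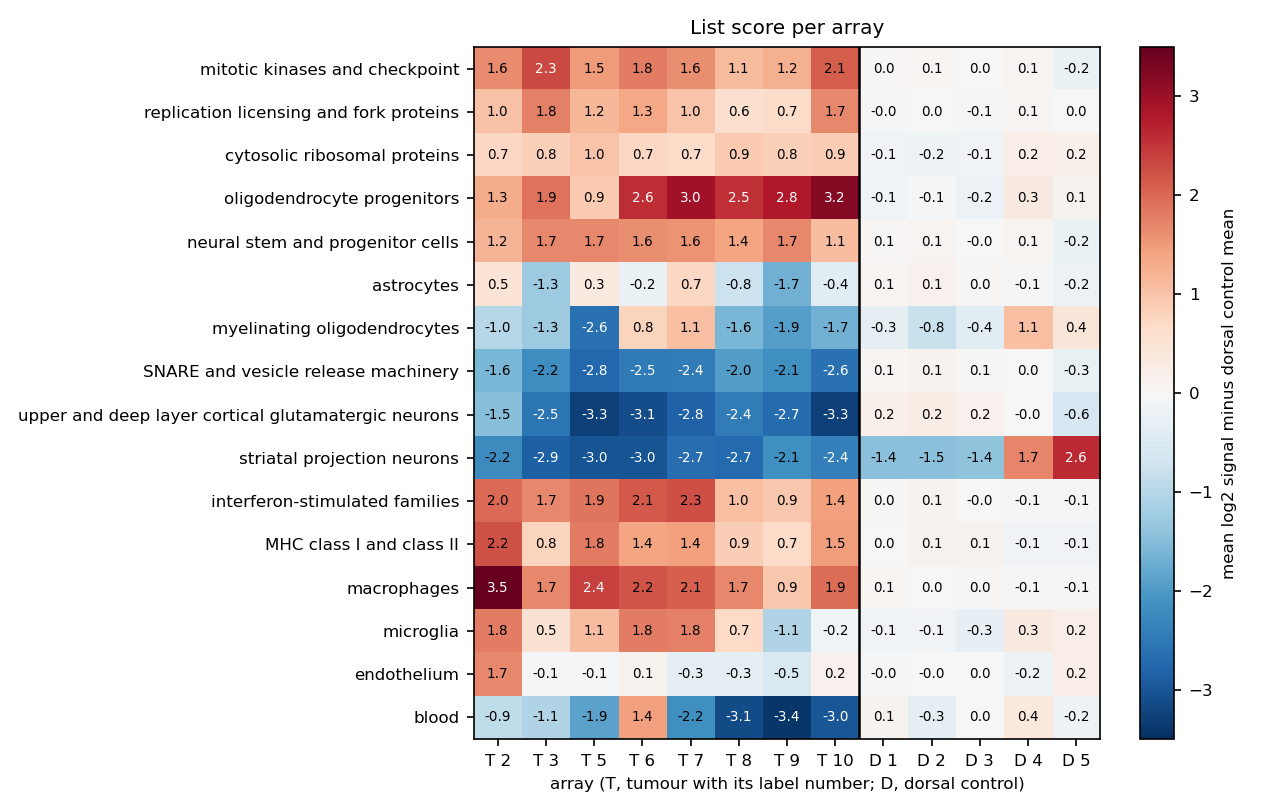
Mean log2 signal of the members of 16 lists on each array, minus the mean of the 5 dorsal controls, for tumours (T, left of the line, with the number of the label) and dorsal controls (D, right). Red is higher and blue lower, and striatal genes stand out in dorsal controls 4 and 5 while macrophage genes are highest in tumour 2.

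Of the extracellular matrix genes that passed, more rose than fell. Of 29 proteoglycan and hyaluronan genes, 14 rose and 3 fell. Tnc, the glycoprotein tenascin-C, differed by 4.71 ± 0.60 (0.75 to 4.45 on other probes), Cd44, the hyaluronan receptor, by 4.05 ± 0.41 (0.05 and 2.31 on others), and Hapln4, a link protein of perineuronal nets, was lower (-2.48 ± 0.57, but 0.10 within chip 3). Of 45 proteases and inhibitors, 21 rose and 6 fell, with Timp1 at 3.65 ± 0.77, Mmp14 at 3.5 ± 0.26 and the neuronal Adam23 at -2.49 ± 0.40. Of 28 collagen genes, 7 rose (25%, near the 26% over all genes) and 0 fell, led by Col18a1 (4.13 ± 0.68, with 1.08 from a second probe) and Col16a1 (3.41 ± 0.37), and 3 rose without dorsal controls 4 and 5. Of 11 YAP and TAZ pathway genes, 10 rose and 0 fell, with a median of 1.86, among them Nt5e (3.02 ± 0.77, but -0.22 within chip 3) and Tead2 (2.12 ± 0.55). The list holds the factors Yap1, Wwtr1, Tead1 and Tead2 themselves beside target genes. Of 54 axon guidance genes, 7 rose and 21 fell. Sema6a was at 1.66 ± 0.27, with 0.35 to 0.66 from other probes. The falls were led by Sema7a (-2.83 ± 0.29) and Slit3 (-2.71 ± 0.28, with -0.25 and -0.63 from other probes).

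Signalling families held members that rose and members that fell, and over all genes 26% rose and 24.2% fell. Of 32 receptor tyrosine kinases, 12 rose (37.5%) and 6 fell (18.8%). Ror2, a Wnt5a receptor, was at least 3.42-fold higher, Ddr1, a collagen receptor, differed by 2.17 ± 0.36 (0.25 on a second probe), and Tyro3 was lower (-2.23 ± 0.25). Of 17 RAS-MAPK feedback and output genes, 8 rose and 3 fell, with Etv4 at 3.10 ± 0.48 and Egr1 at -1.49 ± 0.57, a call that was lost without any 1 of the dorsal controls or without tumour 2, 5, 7 or 10, and without dorsal controls 4 and 5 the counts were 4 and 2. Of 33 Wnt pathway genes, 15 rose and 5 fell, with Tcf7l1 at 2.03 ± 0.22 and Wnt4 at -1.74 ± 0.40 (0.09 within chip 3). Of 15 immediate early genes, 8 fell, among them Egr4 (-3.25 ± 0.54), and 1, Jun, rose (1.84 ± 0.29), with 5 lower without dorsal controls 4 and 5. Of 36 growth factor and IGF-binding genes, 8 rose (22.2%) and 12 fell (33.3%), led downward by Fgf13 (-3.66 ± 0.42, with -2.55 and -0.17 from other probes). With median scaling the counts were 12 and 11, or 5 and 12 without dorsal controls 4 and 5. Of 28 caspase and BCL2 family genes, 18 rose and 3 fell. Among the rises were Bcl2a1b (2.52 ± 0.36) and Bcl2a1d (2.47 ± 0.38, with 0.32 from a second probe). The falls were led by Bcl2l2 (-1.36 ± 0.13).

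Of the genes of glycolysis, respiration and ion pumps that passed, more fell than rose. Among those of serine, one-carbon and nucleotide synthesis more rose than fell. Of 18 glycolytic genes, 11 fell and 1, Ldha, rose (0.45 ± 0.13), with a median of -1.02. Eno2, the neuronal enolase, lay between 8.02 and 11.27 in the 8 tumours (median 9.55), against 13.29, 13.46, 13.42, 13.13 and 13.34 in dorsal controls 1 to 5 (-3.95 ± 0.41, adjusted p = 8.88e-07). Of 33 complex I subunits, 16 fell, with a median of -0.33 and Ndufb9 at -0.99 ± 0.16, and of 23 genes of complexes II to IV 12 fell, led by Cox6a2 (-2.75 ± 0.55). Of 17 subunits of the vacuolar proton pump, 13 fell and 2 rose, with a median of -0.90, Atp6v1g2, the neuronal form, at -3.93 ± 0.43 and Atp6v0e at 2.17 ± 0.15. Of 16 sodium, potassium and calcium pump genes, 9 fell, with Atp1b1 at -2.91 ± 0.30. Of 27 genes of serine, one-carbon and nucleotide synthesis, 17 rose, among them Shmt1 (2.54 ± 0.29), and 3 fell, led by Impdh1 (-1.69 ± 0.13). Of 114 chromatin modifiers, 41 rose (36%, against 26% over all genes) and 28 fell (24.6%, near the 24.2% over all genes). Hmgb2, a high-mobility-group protein of dividing cells, differed by 3.89 ± 0.25 and Ezh2, the methyltransferase of Polycomb, by 2.45 ± 0.34, while Chd5, a remodeller of neurons, was lower (-3.06 ± 0.31).

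The tumours varied more among themselves than the dorsal controls did. The median SD of a gene was 0.44 over the 8 tumours and 0.22 over the 5 dorsal controls, and the SD was larger over the tumours for 9313 of 11755 genes. The largest SDs over the tumours were those of the globins Hba-a1 (3.19), Hbb-bt (3.15) and Hbb-bs (2.98). Hba-a1 lay between 5.57 and 14.79 in the 8 tumours (median 9.25), against 12.87, 12.12, 13.23, 13.27 and 12.51 in dorsal controls 1 to 5 (-3.55 ± 1.23), a call lost without dorsal control 3 or 4, with tumour 6 above every dorsal control and the other tumours below. Gpr17, a receptor of differentiating oligodendrocyte progenitors, lay between 6.69 and 12.76 in the 8 tumours (median 9.83), against 7.78, 7.91, 7.87, 8.65 and 8.11 in dorsal controls 1 to 5 and did not pass (1.63 ± 0.94, adjusted p = 0.16), with 5 tumours above and 3 below every dorsal control. Enpp6, of newly formed oligodendrocytes, lay between 4.41 and 12.45 in the 8 tumours (median 7.27), against 5.92, 5.96, 5.2, 8.27 and 7.38 in dorsal controls 1 to 5 (1.16 ± 1.19, adjusted p = 0.438). With array weights Gpr17 (2.4) and Enpp6 (2.56) passed as higher. Cartpt, a neuropeptide, Snorc, a proteoglycan, and Ttr, the transthyretin of choroid plexus, had SDs over the tumours of 2.60, 2.91 and 2.44. Ttr was at 11.89 in tumour 9 and at most 5.92 in the other tumours. The largest SDs over the dorsal controls were those of Rgs9 (3.62), Ido1 (2.86), Drd1 (2.65), Syndig1l (2.60) and Pde10a (2.58), all highest in controls 4 and 5. Without these controls Rgs9 (1.51) and Pde10a (1.06) passed as higher in the tumours. Ido1 differed by -2.90 ± 0.83 with them and -0.83 without, and Syndig1l by -1.99 ± 0.75 with them and -0.1 without, when it did not pass. E2f1 (-1.0), Egr1 (-1.47), Nkx6-2 (-1.02), Hoxd11 (-0.24), Kcne4 (0.79), Rfng (-0.62), Hba-a1 (-3.49) and Hbb-bt (-3.66) did not pass without them either.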

How the data were processed

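RNA of 8 tumours, 5 dorsal controls and 3 ventral controls was measured on Illumina bead arrays, 1 array a sample. The deposited intensity values and detection p-values are not normalized per the file headers, and the authors' log2 values, made by a method that the sources used here do not state, served as an alternative. limma 3.58.1 in R 4.3.3 gave background-corrected, quantile-normalized log2 values (neqc, offset 16). Probes detected at p under 0.05 on at least 3 arrays were kept, and the probe with the highest mean stood for its gene, leaving 11755 genes. Values from other probes are given for some named genes only, so their absence does not show that the probes agreed. Group means were fitted over all 16 arrays, so that the groups share 1 estimate of the spread, and contrasts were tested with eBayes and Benjamini-Hochberg adjustment at 0.05. Probes were named from the platform annotation. The promoter that drives the recombinase is not reported here.

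Genes were named by a rule: the largest changes without overlap, dorsal-only changes, detection in 1 group, common tumour suppressors, the largest and smallest spreads, and up to 3 members of a list in its main direction with 1 in the other. Cdc20, Eif4a3, Gfap, Gnal, Gnao1, Ifit3, Isg15, Kif18b, Kif4 and Tcf7l2 fall outside this rule and were chosen after their values were seen. The members and lists were chosen with earlier results of these data known. For genes that no array of 1 group detected, the fold is a bound against the weakest detected signal, since the number of arrays and the background limit precision. In simulated data with 8 tumours and 5 dorsal controls the test recovered 25.4%, 61.2% and 84.8% of 1.5-, 2- and 4-fold changes, with 7 false calls among 11755 genes. The simulation used normal noise with 1 SD per gene for all groups and changed 200 genes. In the data the tumours varied more than the dorsal controls and 5890 genes passed, so these rates may not hold for this comparison.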

Additional observations from a re-analysis of the deposited data

Results flagged for a closer look

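Of 468 tests (each gene named here, once over the tumours and once over the dorsal controls), 29 found 1 array farther from its group than Dixon's test allows at its 95% level, where chance alone gives about 1 in 20 groups. Tumour 2 gave the highest tumour value for Gng13 (9.82), Hrh3 (6.52), Itpka (8.19), Kcnab2 (10.63), Kcnh3 (6.11), Neurod2 (7.09), Rgs4 (11.13), Slit3 (6.15), Stx1a (9.71) and Syt1 (12.27), all genes lower in the tumours, and the lowest for Ezh2 (7.20). Dorsal control 5 gave the lowest dorsal value for Cdk5 (8.82), Cenpa (6.39), Dlx1 (6.22), Kif5a (12.22), Neurod2 (6.38), Rph3a (8.58), Slc17a7 (9.19), Sox4 (6.00), Tbr1 (5.77) and Traf4 (5.44). Other single arrays stood apart for Ttr (11.89 in tumour 9), Tcf7l2 (9.34 in tumour 7) and Eif4a3 (11.70 in tumour 3). Among dorsal controls the same held for Pbk (5.51) and Ror2 (4.49) in control 4, Usp18 (5.49) and Snorc (6.61) in control 2 and Cxcl16 (4.84) in control 1.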

How the results depend on the processing

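Leaving out 1 array at a time gave 5364 to 5980 genes past the threshold, 2750 to 3131 higher and 2610 to 2885 lower, with 3139 to 3297 at least 2-fold, 1559 to 1649 higher and 1580 to 1661 lower. The dorsal-only sets held 63 to 87 and 154 to 216 genes, detection in tumours only 148 to 183 and in dorsal controls only 39 to 75 (75 without dorsal control 5, 66 without tumour 2). Lists with most members higher numbered 22 to 31 and lower 15 to 19, and median SDs were 0.419 to 0.447 and 0.192 to 0.226. Without background correction 1641 genes differed 2-fold, 745 higher and 896 lower, 31 were higher against dorsal tissue only, and the SDs were 0.253 and 0.113. Over all probes singly, which tests more features, 10830 passed, 5557 higher and 5273 lower, with 5598 at least 2-fold, 2780 higher and 2818 lower, and 371 lower against dorsal tissue only. Array weights gave 157 genes higher against dorsal tissue only. A stricter detection limit gave 70 genes in dorsal controls only, and leaving out dorsal controls 4 and 5 gave 92, with 17 lists higher. With no detection filter 9 lists were higher and 12 lower, and the tumour SD was 0.275. The mean over probes turned Syngr1 to -0.67 and Zwint to 0.26. Within chip 3, which has 1 dorsal control, Cacng4 was -0.89, Dlx1 0.09, Hapln4 0.10, Nt5e -0.22, Slc17a6 0.59 and Wnt4 0.09. For label numbers 2, 3 and 5, deviations from the group mean correlated between tumour and dorsal control at 0.122, 0.096 and 0.007. These were not set against differently numbered samples, so whether the numbers pair the samples was not tested. With the number as a replicate block 4353 of the 5890 genes also passed. The cause of these changes was not tested, and signal near background limits the dimmest genes.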
